A study of Mus musculus with 3 samples.

Results

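C-type lectin receptors and collectins are proteins that carry a C-type lectin domain, a fold that in many of them binds sugars, and 52 of the 19938 genes measured on these arrays belong to the set described here. They were chosen by symbol, as every gene whose name begins with Clec, Cd209 or Colec, together with Mrc1, Mrc2, Mgl2, Cd207, Cd302, Ly75, Olr1, Asgr1 and Asgr2. All 53 probe sets that carry these symbols name 1 gene only. Clec4g has a pair of them, and the one with the higher mean was used. Of the RefSeq genes whose symbols fit the rule, Clec2f alone had no probe set of its own and was not measured.

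The samples were bone marrow-derived dendritic cells (BMDC) of C57BL/6J mice, differentiated for 9 days with 20 ng/ml of murine GM-CSF and the same concentration of murine IL-4. They form 1 group of 3 samples with no untreated, undifferentiated or genetically altered cells beside them, so no contrast between conditions could be made. Separate mice or cultures are not named in the labels. The spread between the 3 arrays may therefore be technical, and no p-values are given. Values are log2 expression after RMA normalization by the authors, and the number of arrays limits their precision. Of the 6 dendritic cell markers 5 passed the background limit described below, against 60.5% of all genes. Itgax, which encodes the integrin CD11c, stood at 11.91, 11.92 and 11.91 in replicates 1, 2 and 3. Means were 6.36 for Zbtb46, 10.13 for Ccr7, 12.36 for H2-Ab1 and 12.42 for Cd74. Zbtb46 was below the stricter limit set by genes of other tissues, also described below. Flt3, the receptor of a dendritic cell growth factor, was below background at 5.47, 5.47 and 5.24. All 5 macrophage markers passed as well, with means of 10.16 (Adgre1), 10.61 (Mertk), 10.91 (Csf1r), 7.11 (Fcgr1) and 12.22 (Cd68).

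C-type lectin receptors let myeloid cells recognise glycans of fungi, mycobacteria and the body's own proteins, and molecules exposed by dying cells. Some take up what they bind and pass it to antigen presentation, as the mannose receptor does. Others signal through the kinase Syk, either by a tyrosine motif in their own tail or by the adaptor chains that Fcer1g and Tyrobp encode, and a further set carries inhibitory motifs that recruit phosphatases. Collectins join a C-type lectin domain to a collagen-like stalk and act mostly as soluble pattern recognition proteins of innate immunity. Dendritic cells use several of these receptors to sample their surroundings.

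The promoters of 5 genes are shown as examples of the sequence upstream of receptor genes. They were chosen after the values and the motif matches were seen, so they do not compare detected with undetected genes. Each is the stretch of 250 bases before a gene's start, from RefSeq on GRCm38.p6, in the direction of transcription. Capitals mark the PU box GAGGAA on either strand, a sequence bound by the myeloid factor PU.1, and the palindromic STAT6 element TTCNNNNGAA, bound by the factor that IL-4 activates. Both kinds of match are descriptions of letters and show no binding. Clec7a (chr6:129472786-129473035, minus strand), Clec4a1 (chr6:122921598-122921847, plus strand) and Clec5a (chr6:40585806-40586055, minus strand) are all the genes above background whose windows held the STAT6 element. Mrc1 (chr2:14229164-14229413, plus strand) is a gene used as a marker of IL-4 exposed macrophages. Cd209a (chr8:3748985-3749234, minus strand), the mouse gene named for DC-SIGN, was below background.
Clec7a: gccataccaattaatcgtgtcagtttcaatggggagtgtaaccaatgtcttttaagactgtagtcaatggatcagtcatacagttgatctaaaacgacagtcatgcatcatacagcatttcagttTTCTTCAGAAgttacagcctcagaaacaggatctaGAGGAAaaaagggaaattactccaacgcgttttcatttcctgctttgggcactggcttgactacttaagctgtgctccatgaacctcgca
Clec4a1: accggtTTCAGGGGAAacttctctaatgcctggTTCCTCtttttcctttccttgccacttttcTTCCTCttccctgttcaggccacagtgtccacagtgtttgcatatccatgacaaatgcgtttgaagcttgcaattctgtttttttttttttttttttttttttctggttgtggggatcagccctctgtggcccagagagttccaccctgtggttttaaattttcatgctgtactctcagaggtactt
Clec5a: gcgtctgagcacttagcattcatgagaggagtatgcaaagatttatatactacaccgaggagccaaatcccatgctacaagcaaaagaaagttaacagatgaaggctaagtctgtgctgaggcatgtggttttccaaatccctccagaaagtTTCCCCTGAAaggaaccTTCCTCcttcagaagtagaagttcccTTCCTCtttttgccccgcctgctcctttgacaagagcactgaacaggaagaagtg
Mrc1: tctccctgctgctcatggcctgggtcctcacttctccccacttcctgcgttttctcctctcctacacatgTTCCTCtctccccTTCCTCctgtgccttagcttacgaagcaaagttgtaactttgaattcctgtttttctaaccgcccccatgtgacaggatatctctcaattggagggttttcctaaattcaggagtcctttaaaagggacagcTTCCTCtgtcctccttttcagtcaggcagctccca
Cd209a: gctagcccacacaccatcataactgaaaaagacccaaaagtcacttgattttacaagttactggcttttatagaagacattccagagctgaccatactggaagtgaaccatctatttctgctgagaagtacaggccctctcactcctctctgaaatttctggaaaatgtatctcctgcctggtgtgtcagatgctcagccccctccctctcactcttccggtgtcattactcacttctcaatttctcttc

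The Clec7a window held the STAT6 element between 125 and 116 bases before the start and the PU box between 90 and 85 bases before it. Clec4a1 had the STAT6 element at 244 to 235 bases and the PU box at 217 to 212 and at 187 to 182 bases. In Clec5a the STAT6 element lay at 98 to 89 bases, and PU boxes lay at 81 to 76 and at 55 to 50 bases. Mrc1 had 3 PU boxes and no TTCNNNNGAA in this window, and the Cd209a window had neither. Genes below background held these motifs as well, with the STAT6 element in Cd209e, both motifs in Clec4b2 and 2 PU boxes in Clec4e. Promoter windows were available for 42 of the 52 genes, some with more than 1 start, giving 46 windows. The PU box occurred in 14 of 25 windows (56%) of genes above background and in 7 of 21 windows (33.3%) of genes below it, against 23.3% of all 32851 windows in the table. The STAT6 element occurred in 4 of the 25 and 2 of the 21, against 5.85% of all windows. The windows of a gene with several starts overlap in part, and all windows in the table include those of non-coding genes.

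A gene was counted as above background where its value exceeded a limit in every array. The limit was the 95th percentile of 1210 probe sets for olfactory and vomeronasal receptors, which are genes of sensory neurons, taken in each array. These limits were 5.54, 5.54 and 5.55 log2 units. Of 46 genes of other tissues, 17 (37.0%) passed them too, so passing does not by itself show expression. Of the 52 lectin genes, 27 (51.9%) were above background in all 3 arrays and 25 in none, against 60.5% of all genes. The median of the gene means was 5.87 for the lectin genes and 6.12 for all genes. With a limit at the 99th percentile 22 of the 52 (42.3%) were above background, against 46.2% of all genes. A limit at the 95th percentile of the 46 genes of other tissues left 22 (42.3%) as well, against 41% of all genes. The share of the whole set was thus near that of all genes and does not set it apart. Asgr2, Clec18a, Clec4b1, Colec11 and Mrc2 passed neither stricter limit in all 3 arrays. Clec4b1 exceeded the 99th percentile limit in replicates 1 and 2 but not in replicate 3 (6.27 against 6.33). It exceeded the limit from other tissues in replicate 1 only. Probe sets differ in binding strength, so the call is a rough statement of detection, and levels of different genes are not ranked here. Members with near relatives, such as the Cd209, Clec4a and Mgl2 genes, may share signal with them, which was not tested.

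**Figure D1:**
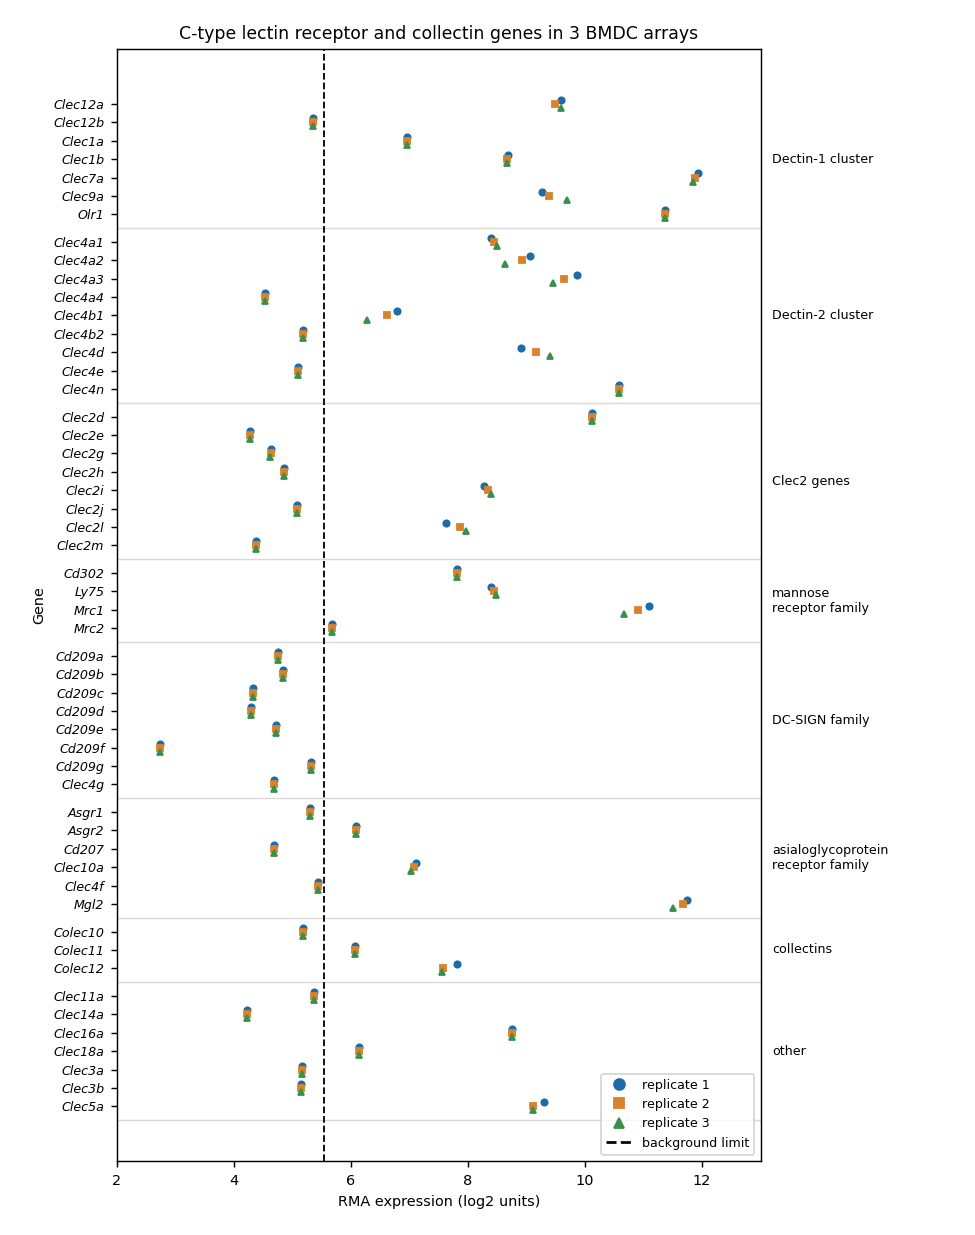
Log2 expression of the 52 genes (x axis) by gene (y axis), with 1 marker per array and the mean background limit as a dashed line. All 8 genes of the DC-SIGN family lie left of the limit, and all 4 genes of the mannose receptor family lie right of it.

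Counts by family follow, beside 60.5% of all genes at the same limit. They cover only the 52 genes of the symbol rule, and relatives outside it are not counted. All 4 genes of the mannose receptor family were above background (3 of 4 at both stricter limits), as were 6 of 7 in the Dectin-1 cluster, 6 of 9 in the Dectin-2 cluster, 2 of 3 collectins and 3 of 6 in the asialoglycoprotein receptor family. Of the Clec2 genes 3 of 8 were, of the remaining Clec genes 3 of 7, and of the DC-SIGN family 0 of 8. Chromosome 6 holds 27 of the 52 genes, of which 16 were above background, a share near that of all genes. On chromosome 8 it was 1 of 10, a count that includes the 8 genes of the DC-SIGN family. No test was made between families, since each holds few genes.

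**Figure D2:**
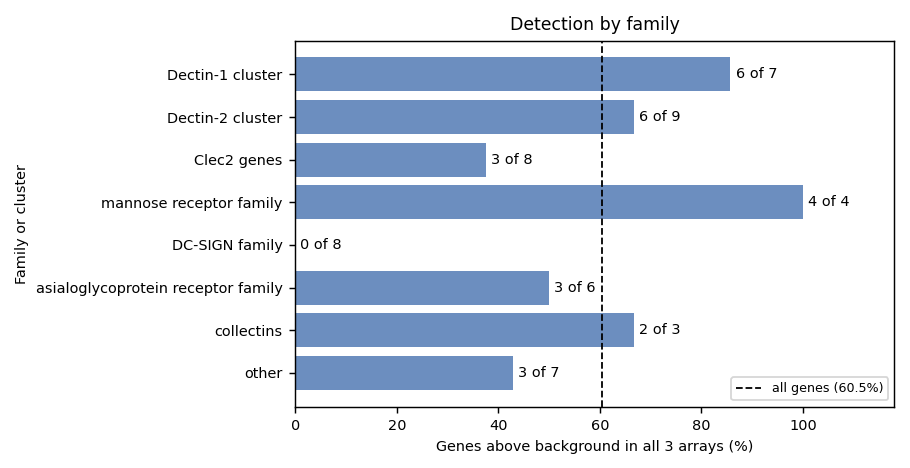
Share of the genes of each family that were above background in all 3 arrays (bars, x axis in percent from 0) by family (y axis), with the count beside each bar. The dashed line marks the 60.5% of all 19938 genes, and the DC-SIGN family has 0 of 8.

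The Dectin-1 cluster gave both activating and inhibitory receptors. Clec7a, which encodes Dectin-1, the receptor for fungal beta-glucan, had 11.93, 11.87 and 11.85 in replicates 1, 2 and 3, a mean of 11.89 ± 0.04 (SD, n = 3). Olr1, which encodes the receptor LOX-1 for oxidised low-density lipoprotein, had 11.37 in each array. The lowest of these values exceeded the background limit by more than 5 log2 units. Clec12a, an inhibitory receptor that binds uric acid crystals, had 9.59, 9.49 and 9.58, a span of 0.10, with replicate 2 the lowest.

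Clec9a, the receptor through which cross-presenting dendritic cells sense the actin of dead cells, had 9.27, 9.38 and 9.70, and replicate 3 was the highest. Clec1b, the receptor for podoplanin that is best known on platelets, had 8.68, 8.67 and 8.67. Clec1a, whose product recognises fungal melanin, had 6.95 in each array. Clec12b, another inhibitory receptor, was below background at 5.35 in each. In the RefSeq annotation Clec12b overlaps Clec1b, Clec9a and Clec1a, and whether its probes are separate from theirs was not tested.

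Megakaryocyte and platelet markers are given beside Clec1b. All 5 measured ones were above background, against 60.5% of all genes. However, Gp9 (5.61) and Itga2b (6.33) passed neither of the stricter limits in all 3 arrays. Gp1ba and Gp6 were not measured separately. The log2 of the summed linear values of the list was 11.10, 10.87 and 10.25, and this difference rests on Pf4 and Ppbp. Pf4 and Ppbp, platelet chemokines, had 10.65, 10.39 and 9.59 and 8.04, 7.56 and 6.64. Treml1 had 7.66, 7.73 and 7.75, and Gp9 and Itga2b were identical in the arrays. These markers were named after their values were seen. Clec1b spanned 0.0092 log2 units over the same arrays. The part of platelet RNA in the level of Clec1b was not tested. Pdpn, which encodes podoplanin, the ligand of the Clec1b product, was itself detected, at 10.88, 11.02 and 11.23.

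The Dectin-2 cluster had 6 genes above background and 3 below it. Clec4n, which encodes Dectin-2, a receptor for fungal alpha-mannan, had 10.58, 10.58 and 10.57. Clec4d, which encodes MCL, a receptor for mycobacterial glycolipid, had 8.90, 9.16 and 9.41. Clec4e encodes Mincle, the receptor for mycobacterial cord factor that can form a complex with MCL. It was below background at 5.10 in each array, next to its neighbour Clec4d. Clec4a2, which encodes the inhibitory receptor DCIR, had 9.07, 8.91 and 8.63.

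Of the relatives of DCIR, Clec4a3 had 9.87, 9.64 and 9.45 and Clec4a1 had 8.39, 8.44 and 8.49. Clec4b1, which encodes DCAR, an activating relative that signals through the Fcer1g chain, had 6.79, 6.61 and 6.27 and passed the limit in each array. The genes below background were Clec4a4, which encodes the receptor DCIR2 of splenic dendritic cells, at 4.52, Clec4b2 at 5.18 and Clec4e. Each of these had the same value in the 3 arrays. Genes above and below the limit were interspersed along the cluster. In the order of their starts, Clec4a4 lay between Clec4a3 and Clec4b1, and Clec4b2 between Clec4a2 and Clec4n.

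**Figure D3:**
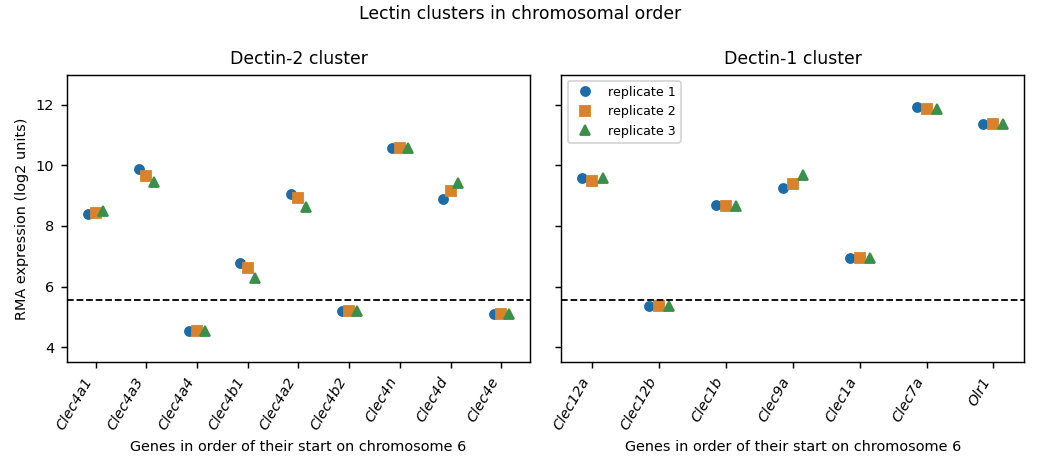
Log2 expression (y axis) of the genes of the Dectin-2 and Dectin-1 clusters in the order of their starts on chromosome 6 (x axis), with 1 marker per array and the mean background limit as a dashed line. Clec4e lies below the limit beside Clec4d, and Clec12b is the only gene of the Dectin-1 cluster below it.

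Grouped by how they signal, from textbook knowledge, the 3 genes whose products carry their own ITAM-like tyrosine motif (Clec7a, Clec1b and Clec9a) were all above background. Of the 5 whose products depend on an activating adaptor chain, 4 were, namely Clec4n, Clec4d, Clec4b1 and Clec5a, and Clec4e was not. Of the 4 with an inhibitory tyrosine motif, Clec12a and Clec4a2 were above background and Clec12b and Clec4a4 below it. This grouping does not cover every member, and Clec4b2 (5.18 in each array) was not placed in it. It was made after the values were seen, and 60.5% of all genes passed the same limit, so nothing is read from these counts. Clec4b1 passed neither stricter limit in all 3 arrays. Clec5a, an adaptor-coupled receptor that recognises flaviviruses, had 9.30, 9.11 and 9.11.

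The mannose receptor family takes up glycoproteins by endocytosis. Mrc1, which encodes the mannose receptor CD206, had 11.10, 10.91 and 10.67, and replicate 3 was the lowest. Ly75, which encodes DEC-205, an antigen uptake receptor used to target dendritic cells, had 8.40, 8.44 and 8.49. Cd302, a small member of the family with a role in phagocytosis, had 7.81 in each array. Mrc2, which encodes the collagen receptor Endo180, had 5.68, 5.67 and 5.68 and lay just above the limit.

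In the asialoglycoprotein receptor family, which binds galactose and N-acetylgalactosamine in most members, the neighbours Mgl2 and Clec10a were detected. Mgl2, which encodes CD301b, a marker of dermal dendritic cells that favour type 2 immunity, had 11.74, 11.67 and 11.51. Clec10a, which encodes its close relative CD301a, had 7.12, 7.07 and 7.03. Asgr2, a subunit of the hepatocyte receptor, had 6.08 in each array, while its partner Asgr1 had 5.30. Clec4f, the Kupffer cell receptor, was below background at 5.44, and Cd207, which encodes langerin of Langerhans cells, at 4.68.

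None of the DC-SIGN family was above background. Cd209a stood at 4.76, Cd209b at 4.84, Cd209c at 4.32, Cd209d at 4.30, Cd209e at 4.72, Cd209f at 2.74, Cd209g at 5.31 and Clec4g, a lectin of liver endothelium, at 4.68. Every one of these values was identical in the 3 arrays. At the limit used here the family was not detectable, and a level below the limit does not show that the transcripts were absent.

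The Clec2 genes encode ligands of inhibitory and activating receptors of NK cells. Clec2d, whose product engages the inhibitory receptor encoded by Klrb1b and so protects cells from NK killing, had 10.13 in each array. Clec2i had 8.27, 8.34 and 8.39, and Clec2l, known from brain, had 7.62, 7.87 and 7.96. Both were lowest in replicate 1. The other 5 genes (Clec2e, Clec2g, Clec2h, Clec2j and Clec2m) lay between 4.27 and 5.07. The receptor gene Klrb1b was above background in replicate 1 alone, at 5.62, 5.45 and 5.29, and Klrb1f in replicates 1 and 2, at 5.56, 5.74 and 5.21. Sap130, which encodes a nuclear protein of dying cells that Mincle binds, had 9.34 in each array.

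Among collectins, Colec12, a membrane-bound scavenger receptor for microbes and oxidised lipoprotein, had 7.82, 7.56 and 7.56, with replicate 1 the highest. For the list of stromal markers the log2 of the summed linear values was also highest in replicate 1, at 10.23, against 8.48 and 8.57 in replicates 2 and 3. This difference rests on Dcn, Sparc, Lox and Bgn, none of them above background in all arrays. Of the 7 stromal markers 2 were, namely Col1a1 (6.94, 6.69 and 6.76) and Col3a1 (6.10 in each). Pdgfrb had 5.55, 5.38 and 5.38. The markers are named here after their values were seen. The part of stromal cells in the level of Colec12 was not tested. Colec11, a soluble collectin of the lectin pathway of complement, had 6.07 in each array. Colec10 was below background at 5.18.

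Of the remaining Clec genes, Clec16a had 8.76 in each array. Its product works in autophagy and mitophagy and is not known as a sugar receptor. Clec18a had 6.14 in each. The genes Clec11a, a growth factor of bone and blood cells (5.37), Clec14a, a gene of endothelium (4.23), Clec3a, a cartilage protein (5.16), and Clec3b, which encodes tetranectin (5.14), were below background.

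Signalling genes downstream of these receptors were detected throughout the list. All 22 genes analysed here were above background, against 60.5% of all genes. The median of the gene means was 8.95. Fcer1g, the adaptor chain of the Dectin-2 group, had 12.08, 12.02 and 12.04, and Tyrobp, the adaptor of Clec5a, had 11.95, 11.96 and 11.82. Syk, the kinase on which the activating receptors converge, had 9.78, 9.88 and 10.02, with replicate 1 the lowest.

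Further members of the list had narrower or wider spreads. Plcg2, the phospholipase activated by Syk, had 8.27, 8.22 and 8.05, and the adaptor gene Lcp2 had 10.87 in each array. Hcst (7.17), Vav1 (8.44) and Vav3 (8.01) were identical in the arrays, Src had 9.08 ± 0.02 (SD, n = 3) and Fgr 6.90 ± 0.13 (SD, n = 3). Card9, Bcl10 and Malt1, named after their values were seen, encode the complex that links Syk to NF-kB, and had means of 7.37 ± 0.02, 8.89 ± 0.09 and 8.99 ± 0.14 (SD, n = 3). Cblb, a ubiquitin ligase that restrains lectin signalling and was named in the same way, had 10.48, 10.30 and 9.87. Detection of these genes does not separate lectin signalling from other pathways that use them. A chosen list held 18 measured genes with a C-type lectin domain that the symbol rule does not cover. Of these, 8 (44.4%) were above background, against 60.5% of all genes. The list is not a full set of such genes.

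Identical values bear on every spread given here. In 31 of the 52 genes (59.6%) the 3 values were identical to the last digit, against 57.1% of all genes. Among the 27 genes above background 7 were identical, against 46.5% of all genes above background. Of the 25 others all but Clec2g (4.63, 4.63 and 4.61) were identical, against 73.3% of all genes not above background. Values identical to the last digit give an SD of 0, which does not measure precision. Among the 20 genes above background whose values were not identical, 10 were lowest in replicate 3 (50%, against 37.8% of all such genes), 6 in replicate 1 and 2 in replicate 2. Highest in replicate 3 were 6 of them (30%, against 36.2%).

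Of the 27 lectin genes above background, 2 (7.41%) spanned more than 0.5 log2 units, against 2.61% of all genes above background. A span over 0.25 was seen in 8 (29.6%), against 8.49%. Identical values, which give no span, were found in 7 of the 27, against 46.5% of all genes above background. How far this bears on the shares was not tested. Clec4b1 spanned 0.52, or 1.43-fold, and Clec4d spanned 0.51, or 1.42-fold. These genes of the Dectin-2 cluster differed in direction, with Clec4b1 lowest and Clec4d highest in replicate 3. Of the other 6, Mrc1 (0.43), Clec4a2 (0.43) and Clec4a3 (0.42) were lowest in replicate 3, and Colec12 (0.26) was too, by less than 0.01 against replicate 2. Clec9a (0.43) and Clec2l (0.35) were highest in replicate 3. Values from 3 arrays of 1 group allow no test of these differences.

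Other lists differed between the same arrays. Over the genes above background, the arrays lay on average at 0.40, 0.09 and -0.50 log2 units from a gene's mean in replicates 1, 2 and 3 for 4 cell cycle genes and 0.35, 0.12 and -0.47 for 4 NK genes. For 4 T cell genes it was 0.35, 0.06 and -0.41. The 5 macrophage markers gave 0.05, 0.00 and -0.05 and the 5 dendritic cell markers -0.01, 0.08 and -0.07, while the 27 lectin genes gave 0.02, 0.00 and -0.02. Of the neutrophil markers 3 of 7 were above background in all arrays, with average deviations of 0.07, 0.00 and -0.08. The log2 of the summed linear values of the 7 was 10.32, 10.07 and 9.60. This difference rests mostly on Lcn2, Retnlg, Ly6g and Cxcr2, none of them above background in all arrays. For the mast cell and basophil markers, 2 of 6 above background, the log2 of the sum was 9.29, 9.52 and 8.18. It was 11.99, 11.62 and 10.87 for the 8 NK markers and 10.17, 9.84 and 9.25 for the 4 T cell markers. Of the NK markers, Ncr1, Klrd1, Klra8 and Klre1 were below background in every array. The NK values above thus rest on Gzma, Gzmb, Prf1 and Klrb1c. A smaller share of a cell type and less RNA per cell cannot be told apart in these bulk samples, and the part of other cells in the differences among lectin genes was not tested.

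**Figure D4:**
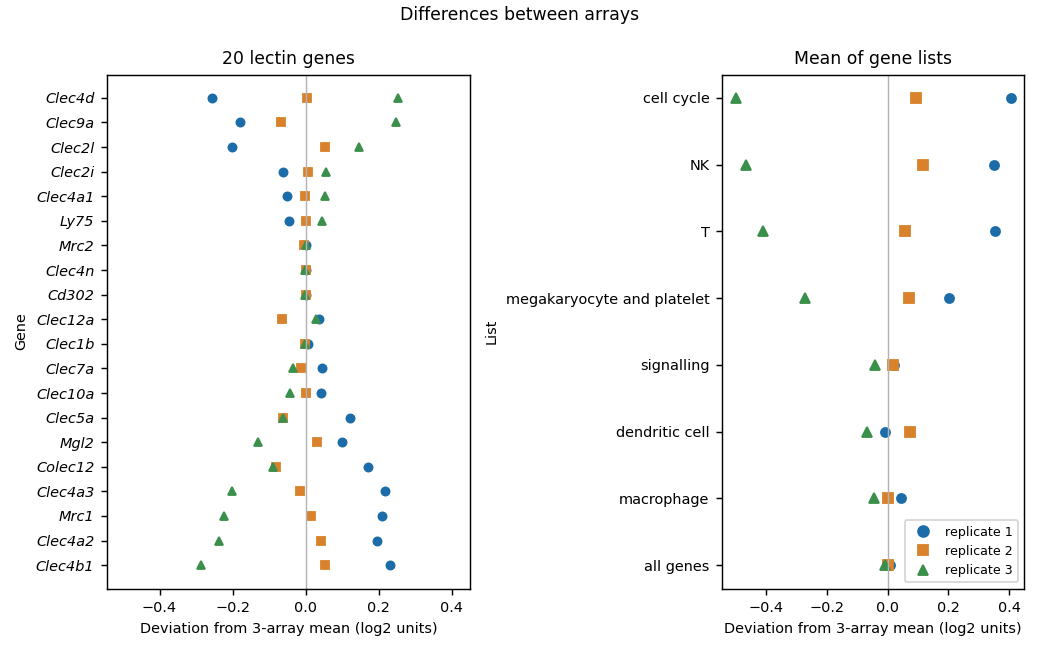
Difference between each array's value and the gene's mean in log2 units (x axis). The left panel gives the 20 lectin genes above background whose values were not identical, by gene, and the right panel the mean over the genes above background of 7 lists and of all genes. Clec4d and Clec4b1 lie at opposite ends, and replicate 3 lies at -0.50 for the cell cycle list.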

How the data were processed

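RNA of 3 BMDC samples was hybridised to Affymetrix whole-transcript arrays after amplification of 150 ng per sample, per the labels' protocols. The deposited log2 values are the output of RMA, as the submitters' processing notes name it, and were used as the authors left them. RMA corrects background, quantile normalizes the arrays and summarizes probes by median polish. Its software, version and genome build are not given in the sources used here. Median polish over 3 arrays can return the same value for several arrays, and 15926 of 35556 probe sets (44.8%) were identical in all 3.

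Probe sets that name 1 gene in the platform annotation (21789) were kept, and each gene took the one with the highest mean. The 1621 that name several genes and the 12146 not listed were not used. Symbols were compared with a RefSeq table (GRCm38.p6) through Entrez identifiers, which changed 0 of them. All computation used Python 3.11.15 with numpy 2.4.6 and pandas 2.3.3, and the call was tested on simulated data. With 1 group no test was made.

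The text names every member above background with its values and the others by family. It also names the measured signalling genes below background (there were none), up to 10 above it in list order, and further genes where stated. Members and lists were chosen with earlier results of these data known. The alternatives changed the limit for background, called genes on their mean, or changed the probe set summary, the span threshold, the array scaling or the arrays included.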

Additional observations from a re-analysis of the deposited data

How the results depend on the processing

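When the 99th percentile of receptor genes served as the limit, 22 of the 52 lectin genes were above background, against 46.2% of all genes. Setting it by the 95th percentile of 46 genes of other tissues gave 22 as well, against 41% of all genes. Asgr2, Clec18a, Clec4b1, Colec11 and Mrc2 were lost under both limits, so these 5 calls rest on the lower limit, and the collectin count fell to 1 of 3 under each. Under each the counts were 3 of 4 for the mannose receptor family, 5 of 9 for the Dectin-2 cluster, 2 of 6 for the asialoglycoprotein receptor family and 2 of 7 for the remaining Clec genes. The signalling list stayed at 22 of 22 and the DC-SIGN family at 0 of 8 under both. The call on the mean, the median over probe sets and leaving out each array in turn left the lectin count at 27, and the counts by family did not move. These settings could not have moved them, so nothing is read from this. Each lectin gene was above the limit in all 3 arrays or in none. Only Clec4g had several probe sets, and these were all below the limit. The count of genes spanning over 0.5 log2 units was 2, and it was 0 with a threshold of 1 unit and 8 with 0.25. Leaving out each replicate gave 0 to 2 genes, with 0 without replicate 1 or without replicate 3, as a span over fewer arrays can only shrink. It was 2 with the arrays scaled to a common median. No paired analysis was possible because all 3 samples form 1 group. Signal over background limits what can be said of genes near the limit, Mrc2 and Clec4f among them.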
